A study of Mus musculus with 4 samples.

Results

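The 4 Id genes (Id1, Id2, Id3 and Id4) and 6 genes of bone morphogenetic protein (BMP) signalling (Bmp4, Bmpr1a, Smad6, Bambi, Msx1 and Msx2) were followed from mouse ES cells to epiblast-like aggregates (ELA) and in ELA formed with a chromatin inhibitor. They are 10 of the 36163 gene names on the array and are read by 11 of its 55681 gene probes. Members were chosen by gene name, with earlier results of the same arrays known: the Id genes because, as a group, they had not gone back to their ES level with the inhibitors, and the others as BMP ligand, receptor, feedback and target genes. The levels below are therefore a description and carry no test. The study used E14Tg2A, an established mouse ES line of the 129/Ola strain. Untreated ES cells (0 days in vitro, here ES) were grown on gelatin with serum and the cytokine LIF. Untreated ELA (2 days in vitro) were floating aggregates in serum-free N2/B27 medium without LIF. Time, medium and aggregation therefore cannot be told apart in the ES to ELA step. ELA+AZA and ELA+CHQ were formed over the same 2 days with 50 nM 5-azacytidine, a cytidine analog that inhibits DNA methyltransferases, or with 100 µM 5-carboxy-8-hydroxyquinoline, an inhibitor of histone lysine demethylases. Each group was 1 array, and each array held RNA pooled from 3 experiments, so no spread between experiments could be measured and no p-value was computed. ES and ELA lay on the same slide, and ELA+AZA and ELA+CHQ on another. Inhibitor and slide therefore cannot be told apart in any comparison of a treated array with ELA or ES, whereas ELA against ES and CHQ against AZA each stay within a slide.

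BMP ligands bind type I and type II serine/threonine kinase receptors, which phosphorylate SMAD1, SMAD5 and SMAD9. These enter the nucleus with SMAD4 and bind DNA. Id genes are the textbook direct targets of this branch. Their products are helix-loop-helix proteins without a basic DNA-binding region that pair with E proteins and keep E proteins and proneural factors off DNA, and in mouse ES cells BMP, acting through Id proteins beside LIF, is known to support self-renewal. Inhibitory SMADs and BAMBI form negative feedback on the same pathway, and Msx1 and Msx2 are homeobox genes induced by BMP in many embryonic tissues.

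The probes that carry the results are 60 bases long, and the first 30 bases of each are shown 5′ to 3′, because they are what the array read and because the 2 Bmp4 probes differed so much in signal. Positions are those of the array design on build mm9. The Id1 probe lies at chr2:152563083-152563142, plus strand, the Id2 probe at chr12:25778904-25778963, minus strand, the Id3 probe at chr4:135700075-135700249, plus strand, and the Id4 probe at chr13:48358668-48358727, plus strand. The Id3 probe covers 175 genome positions with its 60 bases, whereas the other probes shown cover 60. The Bmp4 probes lie at chr14:47003391-47003450, minus strand, and at chr14:47003198-47003257 on the same strand, with GC contents of 38.3% and 15.0%. Whether a probe lies in a coding or untranslated part of its gene was not analysed here.
Id1: attgttttacaatagttctatgggggtgag
Id2: tgagtgaaccttgtggactctttaattaga
Id3: tccgcatctcccgatccagacagctgagct
Id4: tgctaagtagaagagcaatcgtgaatccaa
Bmp4, bright probe: caaccacctacacataccacacaaactgct
Bmp4, dim probe: gacaaatatatttataactacatattaaaa

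Upstream sequence was printed for the Id genes that went different ways on the 4 arrays, as far as the RefSeq promoter table (GRCm38.p6) listed them, which was 3 of 4 (Id2, Id3 and Id4). The 250 bases before the annotated start lie at chr12:25096093-25096342 (minus strand) for Id2, at chr4:136143572-136143821 (plus strand) for Id3 and at chr13:48260866-48261115 (plus strand) for Id4. Capitals mark 2 sequences described in BMP-responsive elements, GGCGCC, which is its own reverse complement, and GGAGCC, searched on both strands and therefore also as GGCTCC. They did not overlap here.
Id2: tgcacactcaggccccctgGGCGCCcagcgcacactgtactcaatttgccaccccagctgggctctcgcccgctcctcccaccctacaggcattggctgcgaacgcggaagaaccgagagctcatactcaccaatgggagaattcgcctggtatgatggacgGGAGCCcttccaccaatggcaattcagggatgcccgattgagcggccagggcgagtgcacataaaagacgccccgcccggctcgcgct
Id3: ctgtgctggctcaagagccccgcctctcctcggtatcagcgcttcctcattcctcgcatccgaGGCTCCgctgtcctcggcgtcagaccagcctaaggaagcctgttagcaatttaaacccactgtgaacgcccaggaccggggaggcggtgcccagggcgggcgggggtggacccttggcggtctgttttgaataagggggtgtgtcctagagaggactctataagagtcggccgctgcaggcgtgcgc
Id4: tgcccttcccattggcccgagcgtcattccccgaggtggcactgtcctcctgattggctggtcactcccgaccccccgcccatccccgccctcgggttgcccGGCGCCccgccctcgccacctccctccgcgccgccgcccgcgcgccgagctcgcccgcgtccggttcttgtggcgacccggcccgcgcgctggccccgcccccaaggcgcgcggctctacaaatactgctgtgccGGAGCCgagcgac
GGCGCC began at position -231 in Id2 and -148 in Id4, counted from the start, and did not occur in the Id3 window. GGAGCC began at -88 in Id2, at -187 in Id3 (as GGCTCC) and at -13 in Id4. Over 32851 windows of the same length in the table, 9.59% held GGCGCC and 26.0% held GGAGCC. GC content was 62.8% for Id2, 62.8% for Id3 and 75.6% for Id4. A match is a run of letters and was not read as a binding site.

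Id1 was the member that differed most between ES and ELA. Its mean spot intensity on the scanner was 30951 units in ES, 1425 in ELA, 669 in ELA+AZA and 583 in ELA+CHQ, over local backgrounds of 53, 79, 13 and 13 units. After normalisation the log2 levels were 14.59, 10.61, 9.46 and 9.20. ES stood apart at the top and both treated arrays lay below ELA. The error of such a value, from the scanner software's own error model, was 0.14 log2 for bright spots. It covers the reading of a spot and no difference between cultures. Neighbours in the order of levels were called separate where they differed by more than 2 combined errors, which was 0.41 for the Id1 steps. The steps from ES to ELA (3.98) and from ELA to ELA+AZA (1.15) passed that limit, and the step from ELA+AZA to ELA+CHQ (0.26) did not.

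Id2 had log2 levels of 13.38 in ES, 10.42 in ELA, 9.70 in ELA+AZA and 10.79 in ELA+CHQ, from scanner intensities of 12686, 1256, 793 and 1809 units. The drop from ES to ELA was 2.96 on the log2 scale, or 7.77-fold. ELA+CHQ and ELA did not differ beyond 2 errors (0.37 against 0.41), while ELA+AZA was lower than ELA by more than that limit (0.72 against 0.41). With scaling to reference transcripts the latter difference was -0.13, within the limit. All 3 ELA arrays stayed well below ES, the nearest of them, ELA+CHQ, by 2.59.

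Id3 did not follow Id1 and Id2 at the ES to ELA step. Its log2 levels were 13.44 in ES, 13.69 in ELA, 11.36 in ELA+AZA and 10.36 in ELA+CHQ, from 13180, 12257, 2577 and 1337 scanner units. ES and ELA did not differ beyond 2 errors (0.26 against 0.41). With spike-in scaling the difference of ELA from ES was -0.47, past this limit but not called. ELA+AZA was 5.05-fold and ELA+CHQ 10.1-fold below ELA. The difference between ELA+CHQ and ELA+AZA, within a slide, was -0.999, just short of the size of 1 log2 unit used for a call.

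Id4 ran the other way from Id3. Its log2 levels were 8.72 in ES, 10.76 in ELA+AZA and 9.63 in ELA+CHQ, while in ELA the spot (129 units over a background of 79) was not well above background and gave 6.84. The ELA value is therefore a bound only. Set against the ELA value as read, ES was 3.67-fold, ELA+AZA 15.1-fold and ELA+CHQ 6.92-fold higher under this normalisation. That ELA value had a reading error of 0.37 log2, so these folds are not firm lower limits. Over the alternatives the Id4 differences ran from -2.85 to -1.60 log2 for ELA against ES, from 3.54 to 5.07 with AZA and from 2.34 to 3.89 with CHQ. Both treated arrays lay above ES, by 2.04 and 0.91 log2 units. The local background under the Id4 spot was 55 and 79 units on the slide of ES and ELA and 12 on both arrays of the other slide, and the part of this difference in the Id4 result was not tested.

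**Figure D1:**
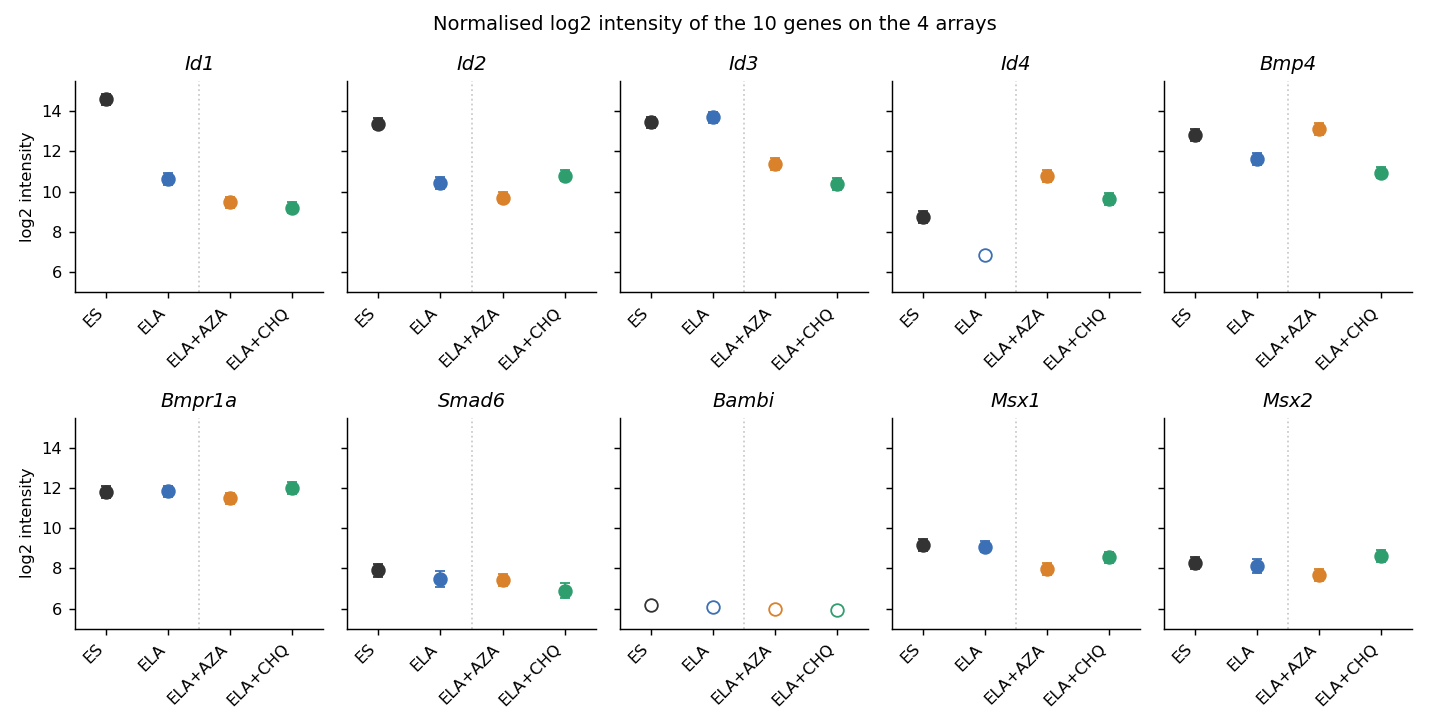
Normalised log2 intensity (y axis) of the 10 genes on the 4 arrays (x axis), 1 point per array; bars are 2 reading errors, open points were not well above background, and the dotted line separates the slides. Id1 fell from 14.59 in ES to 10.61 in ELA and was lower still with both inhibitors, Id3 was high in ES and ELA only, and Id4 was highest in ELA+AZA (10.76).

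Bmp4, the ligand of the list, had log2 levels of 12.81 in ES, 11.63 in ELA, 13.10 in ELA+AZA and 10.94 in ELA+CHQ on its bright probe, from 8270, 2871, 8329 and 1995 scanner units. ELA+AZA and ES did not differ beyond 2 errors (0.29 against 0.41), and ELA+CHQ was the lowest array, 0.69 below ELA. Within the second slide ELA+CHQ was 4.46-fold below ELA+AZA. The dim Bmp4 probe was not well above background on ES, ELA or ELA+CHQ (6.09, 6.09 and 6.19), and its spot on the ELA+AZA array carried an outlier flag and was left out.

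Bmpr1a, a type I BMP receptor, was the steadiest member that was well above background on all arrays. Its log2 levels were 11.80 in ES, 11.83 in ELA, 11.49 in ELA+AZA and 11.99 in ELA+CHQ, and sorted by level no neighbours differed beyond 2 errors. The lowest and the highest array, ELA+AZA and ELA+CHQ, differed by 0.51, beyond the limit of 0.41. Its probe lies at chr14:35224339-35224398, minus strand.

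The feedback genes were dim. Smad6, an inhibitory SMAD, had log2 levels of 7.90 in ES, 7.48 in ELA, 7.42 in ELA+AZA and 6.89 in ELA+CHQ (chr9:63800980-63801039, minus strand). Only the step from ELA+AZA to ELA+CHQ (0.52) passed 2 errors (0.47), and outside the ES to ELA comparison the mean of the arrays compared was under the level of 7.5 needed for a call. Bambi, a pseudoreceptor that blocks BMP receptors, had 6.19, 6.08, 5.99 and 5.91 and was not well above background on any array, so that no difference can be read from it.

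Of the homeobox targets, Msx1 had log2 levels of 9.17 in ES, 9.09 in ELA, 7.96 in ELA+AZA and 8.55 in ELA+CHQ (chr5:38212305-38212364, minus strand). ES and ELA did not differ beyond 2 errors (0.08 against 0.42), and ELA+AZA was lowest, 1.12 below ELA. Msx2 had 8.27, 8.12, 7.68 and 8.62 (chr13:53562318-53562377, minus strand), and sorted by level no neighbours differed beyond 2 errors, while ELA+CHQ and ELA+AZA, its ends, differed by 0.94.

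A call required a difference of at least 1 log2 unit, a mean level of 7.5 or more over the arrays compared, and a spot well above background on 1 of them or both. Between ES and ELA 4 of the 9 members that could be called passed, all lower in ELA (Id1, Id2, Id4 and Bmp4), where 10.0% of 18896 genes did. With AZA against ELA 5 of 8 passed, Id4 and Bmp4 higher and Id1, Id3 and Msx1 lower, where 25.6% of 19106 genes did. With CHQ against ELA 3 of 8 passed, Id4 higher and Id1 and Id3 lower, where 26.6% of 19113 genes did. Between the inhibitors, on 1 slide, 3 of 8 passed, Id2 higher and Id4 and Bmp4 lower with CHQ, where 10.3% of 19145 genes did. Since members were selected with these values known, nothing is read from the counts against these percentages.

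Called differences kept their sign under every alternative normalisation run for their comparison, but 5 of the 15 calls were lost in at least 1 of them. For Id4 (ELA against ES, and CHQ against ELA) the mean level then fell under 7.5 while the difference grew. Requiring a spot well above background on both arrays compared took away all 3 Id4 calls against ELA, and 12 of 15 calls stayed. With AZA against ELA, scaling to reference transcripts gave -0.55 for Id1 and -0.60 for Msx1, and took away both calls. The 12 further probes of 4 of these reference genes ranged from -1.41 to 0.72 for AZA against ELA and from -1.24 to 0.64 for CHQ against ELA, but only from -0.22 to 0.21 for ELA against ES and from -0.09 to 0.19 between the inhibitors, each within a slide. The part of this spread between slides in the member results was not tested. Between the inhibitors Id2 was no longer called with spike-in scaling (0.99) or reference transcripts (0.60), while Id3 became called in 5 settings (-1.02 to -1.48) and Msx2 in 4 (1.01 to 1.33).

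**Figure D2:**
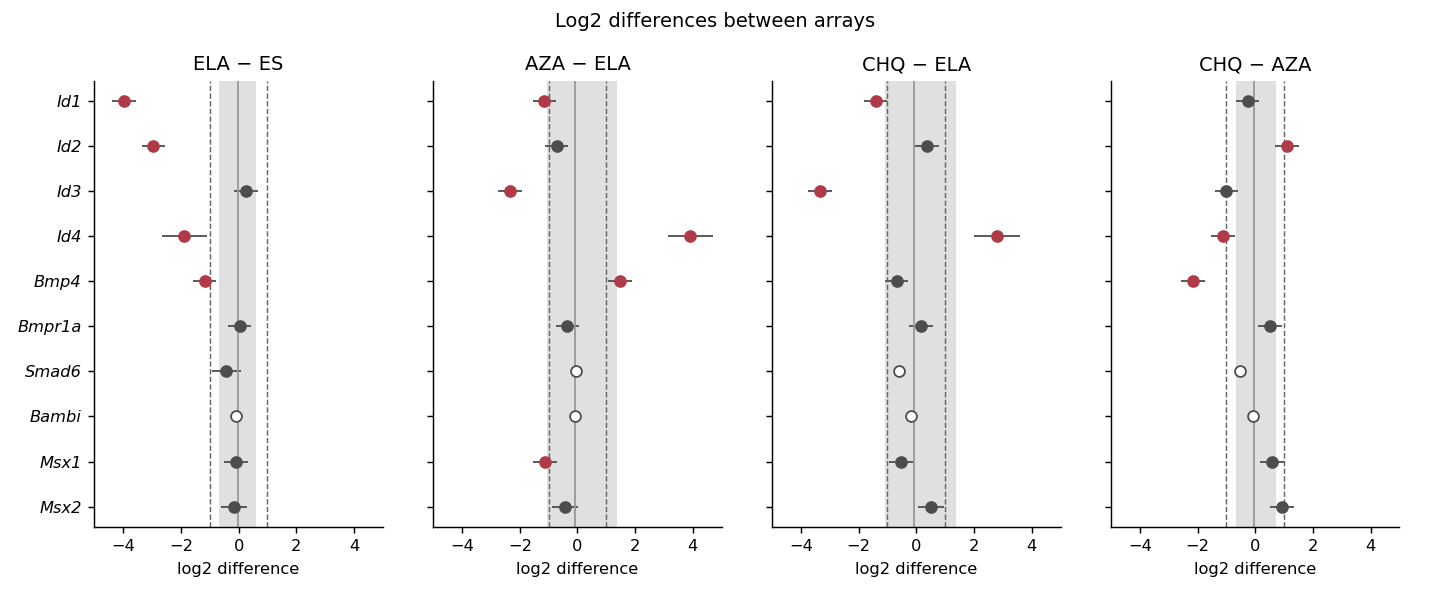
Log2 difference (x axis) of each member (rows) in the 4 comparisons (panels); points in red were called, open points could not be called, bars are 2 reading errors, dashed lines mark a difference of 1, and the grey band holds the middle 80% of all genes that could be called. Id1 and Id2 lay at -3.98 and -2.96 between ES and ELA, and with the inhibitors Id3 lay far to the left and Id4 far to the right of the band.

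The 4 Id genes had a median difference of -2.42 between ES and ELA, -0.94 with AZA, -0.52 with CHQ and -0.63 between CHQ and AZA. The value of -2.42 rests on Id2 (-2.96) and Id4 (-1.88), and that of Id4 uses an ELA value that was not well above background. The BMP members that could be called had medians of -0.16 (5 genes), -0.39, -0.19 and 0.54 (4 genes each). Over all genes that could be called the medians were -0.02, -0.07, -0.09 and -0.02. Against ELA with each inhibitor the Id median stands for genes of opposite sign, since Id4 rose where Id1 and Id3 fell. Scaling to reference transcripts turned the BMP median with AZA to 0.23 and moved the Id median to -0.34, and between CHQ and AZA it gave 0.057 and -1.11. That 0.23 is the value of Smad6, which could not be called with AZA under the main normalisation, so the genes behind the median changed too. In the authors' value table, where Id4 was under the level for a call with CHQ, the Id median with CHQ was -1.57 over the other 3 genes and -0.60 over all 4.

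The members called between ES and ELA were then placed on the scale from ELA to ES, on which 0 is the ELA level and 1 the ES level. All such fractions use the ELA array on both sides, so they are not independent of it. Id1 came to -0.29 with AZA and -0.35 with CHQ, that is, further from ES than untreated ELA. Id2 came to -0.24 and 0.12. Id4 came to 2.09 and 1.49, from an ELA level that is only a bound. Bmp4 came to 1.24 with AZA and -0.58 with CHQ. The median of the 1899 genes called between ES and ELA was 1.06 with AZA and 0.837 with CHQ. Set directly against ES, without ELA, the log2 differences with AZA and CHQ were -5.13 and -5.39 for Id1 and -3.68 and -2.59 for Id2.

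**Figure D3:**
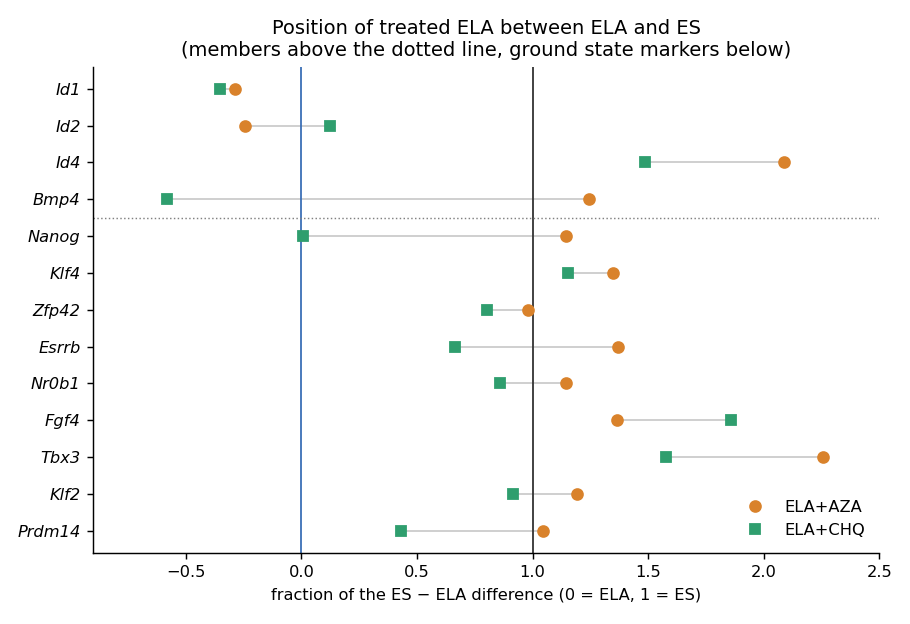
Fraction of the ES minus ELA difference (x axis, 0 for ELA and 1 for ES) in ELA+AZA (circles) and ELA+CHQ (squares) for the 4 members called between ES and ELA and, below the dotted line, 9 ground state markers. Id1 lay left of 0 with both inhibitors, the circles of the 9 markers lay between 0.98 (Zfp42) and 2.25 (Tbx3), and their squares ran from 0.004 (Nanog) and 0.43 (Prdm14, from an ELA level that is only a bound) to 1.86 (Fgf4).

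The labelled states were checked on markers. All 9 ground state markers analysed were called lower in ELA than in ES, 9 were called higher with AZA than in ELA and 8 with CHQ. The exception was Nanog, a core pluripotency factor, with log2 levels of 15.03 in ES, 12.53 in ELA, 15.39 in ELA+AZA and 12.54 in ELA+CHQ. A second, dimmer Nanog probe disagreed in all of these directions (9.44, 9.68, 8.13 and 8.66). Klf4 had fractions of 1.35 and 1.15, Zfp42 0.98 and 0.80, and Esrrb 1.37 and 0.66 with AZA and CHQ. Of 5 primed epiblast markers 2 (Fgf5 and Dnmt3b) were called higher in ELA than in ES, and 3 were called lower with AZA and 2 with CHQ than in ELA. Over all genes that could be called, 4.46% were called higher and 5.59% lower in ELA than in ES. Against ELA 14.2% were called higher and 11.4% lower with AZA, and 14.8% and 11.9% with CHQ. Neither of the general pluripotency genes Pou5f1 and Sox2 was called in any comparison.

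Markers of other cell types moved with the inhibitors too, and their part in the Id results was not tested. Over all genes that could be called, the shares called higher and lower were 14.2% and 11.4% with AZA. They were 14.8% and 11.9% with CHQ, and 4.46% and 5.59% for ELA against ES. Of 6 primitive endoderm markers Gata6 and Sox17 were called higher with CHQ than in ELA, by 9.21-fold and 6.70-fold. These are against ELA values as read, and neither was well above background in ELA. A second Sox17 probe, also not well above background in ELA, gave a smaller difference of 1.38 log2 with CHQ. Dab2 was called lower with both inhibitors, and the summed intensity of the list was 745 in ES, 854 in ELA, 1041 in ELA+AZA and 2322 in ELA+CHQ. This and the sums below include the offset of 50 in each gene's value. On these arrays 3, 2, 6 and 5 of the 6 genes were well above background. With CHQ most of the sum came from Gata6 (log2 9.89) and Sox17 (9.51). Of the early neural markers 4 of the 5 that could be called (Nes, Zic1, Sox3 and Hes5) were lower with each inhibitor, although a dimmer Zic1 probe gave -0.01 with AZA and 1.75 with CHQ, against -1.66 and -1.28 on the bright one. The sum of all 6 was 11938, 40756, 7578 and 12032. Of the trophoblast markers the keratins Krt8 and Krt18 were called lower with each inhibitor, Eomes was not called, and Cdx2 and Elf5 were not well above background in ELA. Hand1, also not well above background in ELA (6.39), was higher with AZA (7.56) and CHQ (7.87) but under the mean level for a call. The sum of 6 was 118047, 88513, 30655 and 24258, of which these keratins made up 95.8% to 99.0%. Of 6 mesoderm markers only Kdr, with CHQ, was called lower (-1.05, against 0.83 on a dimmer probe), and the sums were 8734, 10114, 5869 and 5784, of which Kdr made up 77.9% to 92.2%. Mesp1 was well above background on the treated arrays only (7.75 and 7.89), and Tbx6 gave 0.20 with AZA and 0.93 with CHQ against ELA. A second Tbx6 probe, well above background on all 4 arrays, gave -0.51 and -0.25. Of 6 fibroblast markers Dcn and Thy1 were called higher in ELA than in ES, 1 was called higher and 2 lower with AZA, 3 were called lower with CHQ, and the sums were 5441, 13843, 8072 and 3376, of which Thy1 made up 73.1% to 88.7%. In pooled RNA, fewer cells of a type and less RNA per cell cannot be told apart.

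The rest of the pathway was read from 8 lists, of which 72 genes were analysed, likewise chosen with earlier results of the arrays known. Between ES and ELA 8 of the 42 that could be called passed (4 higher, 4 lower), which is 19.0% against 10.0% of all genes. With AZA against ELA 11 of 41 passed (8 higher, 3 lower), 26.8% against 25.6% and so close to the share of all genes. With CHQ against ELA 14 of 41 passed (10 higher, 4 lower), 34.1% against 26.6%. Between the inhibitors 7 of 43 passed (2 higher, 5 lower with CHQ), 16.3% against 10.3%. The medians were 0.20, 0.11, 0.33 and 0.04.

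Among 13 other BMP and GDF ligands, 5 could be called between ES and ELA and 4 in the other comparisons. Bmp7, a ligand of wide use in the embryo, had log2 levels of 9.46 in ES, 10.01 in ELA, 12.29 in ELA+AZA and 12.65 in ELA+CHQ, and both treated arrays stood above the untreated ones. Bmp8a had 10.05, 9.33, 10.46 and 10.50 and was called higher with each inhibitor. Bmp8b, known for its part in germ cell specification, had 10.07 in ES and 7.80, 7.72 and 7.60 in the ELA arrays. Like Id1, Bmp8b was high in ES alone.

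Of 10 other receptors and co-receptors, 9 could be called. Eng, the co-receptor endoglin, had log2 levels of 10.30 in ES, 9.25 in ELA, 11.42 in ELA+AZA and 12.12 in ELA+CHQ and was called in each comparison with ELA. Acvrl1, a type I receptor for BMP9 and BMP10, had 8.15, 8.20, 9.40 and 8.36 and was called higher with AZA and lower in CHQ than in AZA. The type I receptor Acvr1 (1.09) and the type II receptor Acvr2b (1.01) were called higher in ELA than in ES, and a second Acvr1 probe gave 1.02. None of the 3 receptor and common SMADs that could be called (Smad1, Smad4 and Smad5) passed in any comparison, and Smad9 was under the level needed. Over all genes 10.0% passed between ES and ELA, 25.6% with AZA, 26.6% with CHQ and 10.3% between the inhibitors.

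Secreted BMP antagonists gave 0 calls among 7 between ES and ELA, where 10.0% of all genes were called, so nothing is read from that count. Fst, which encodes follistatin, had log2 levels of 10.23 in ES, 10.46 in ELA, 12.48 in ELA+AZA and 11.80 in ELA+CHQ, and Nbl1 had 9.49, 9.94, 8.57 and 8.28, so the 2 were called in opposite directions with each inhibitor. Bmper was well above background in ELA (7.47) and ELA+CHQ (8.67) only, and was called higher with CHQ by 1.21 against ELA. Noggin (Nog), a classical BMP antagonist, missed the call with AZA (-0.996) and with CHQ (-0.97).

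Among 6 intracellular inhibitors other than Smad6, Smad7 moved most. Its log2 levels were 11.20 in ES, 8.45 in ELA, 11.91 in ELA+AZA and 11.43 in ELA+CHQ. Smad7, an inhibitory SMAD of both the BMP and the TGF-β branch, was called lower in ELA than in ES (-2.75) and higher with each inhibitor (3.46 and 2.98). ELA was thus the low array of the 4, whereas Id1 was lower on both treated arrays than in ELA. Ski (1.09) and Tob1 (1.20) were called higher with CHQ. Second probes of Skil and Smurf2 disagreed in sign with the brighter ones with AZA or CHQ, and neither gene is read here.

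Of 11 other genes described as BMP targets in some tissue, only 3 or 4 could be called in a comparison. Tbx3, which is also a ground state factor, had log2 levels of 10.72 in ES, 8.46 in ELA, 13.56 in ELA+AZA and 12.03 in ELA+CHQ and was called in each of the 4 comparisons. Hey1, a Notch and BMP target, had 9.62, 10.49, 9.81 and 8.80 and was called lower with CHQ. Hand1 was not well above background in ELA (6.39), and had 7.63 in ES, 7.56 in ELA+AZA and 7.87 in ELA+CHQ.

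Id proteins pair with E proteins and thereby act on proneural factors. Of the E protein genes Tcf3 (which encodes E2A), Tcf4 and Tcf12, only Tcf12 was called between ES and ELA (1.15), and its dimmer probe gave 0.81. None was called with either inhibitor against ELA, where 25.6% (AZA) and 26.6% (CHQ) of all genes were. A second Tcf3 probe gave -1.14 with AZA and -1.62 with CHQ. The brighter Tcf4 probe was called lower with CHQ than with AZA (-1.14), while a dimmer one, well above background on all 4 arrays, gave 0.05. Of 10 proneural and Hes genes, Hes5, a Notch target of neural progenitors, had log2 levels of 8.74 in ES, 10.89 in ELA, 9.03 in ELA+AZA and 7.67 in ELA+CHQ and was called in each comparison. Neurog3 was called lower (-1.07 and -1.81) and Neurod1 higher (1.07 and 1.27) with AZA and CHQ, while a dimmer Neurod1 probe gave 0.62 and 0.82, under the size for a call. A second Neurog3 probe was not well above background on any array. Hey2 was called between CHQ and AZA (1.20).

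**Figure D4:**
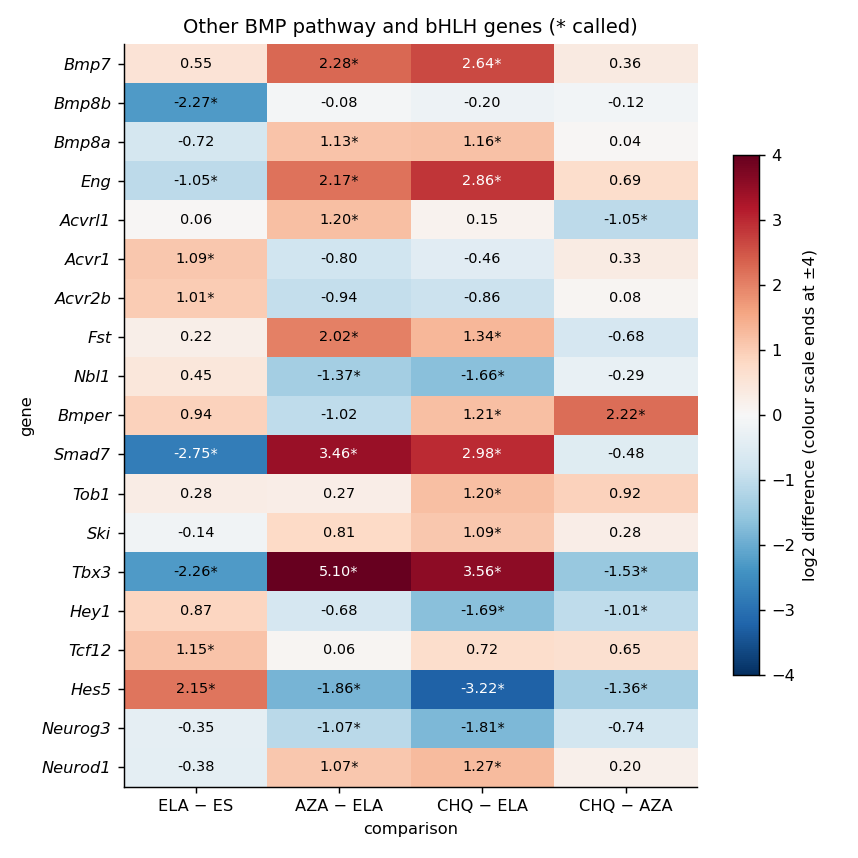
Log2 difference (number and colour) of 19 other pathway and helix-loop-helix genes (rows) in the 4 comparisons (columns), with an asterisk on called differences; at most 4 genes per list were drawn, those called in at least 1 of the first 3 comparisons with the largest difference. Smad7 and Tbx3 were low in ELA alone (-2.75 and -2.26 against ES), and no gene of the receptor and common SMADs met the rule.

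The genes whose pattern was most like that of a member were looked for among 1377 genes called between ES and ELA and well above background on at least 3 of the 4 arrays, by Euclidean distance between profiles centred on the gene's mean. For Id1 the nearest were Spink3 (1.40), Tagln (1.68), Sfn (1.81), Krt17 (1.87) and Acta1 (1.96). None lay close. Tagln, which encodes an actin-binding protein, had log2 levels of 15.47 in ES, 13.69 in ELA, 11.12 in ELA+AZA and 10.40 in ELA+CHQ. For Bmp4 the nearest were Gng13 (0.05), Glrx (0.24), Myl7 (0.37), Aplp1 (0.42) and Cd2 (0.50). Gng13, a G protein gamma subunit gene, had 9.68, 8.55, 9.96 and 7.80. With 4 arrays such likeness describes these arrays only.

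**Figure D5:**
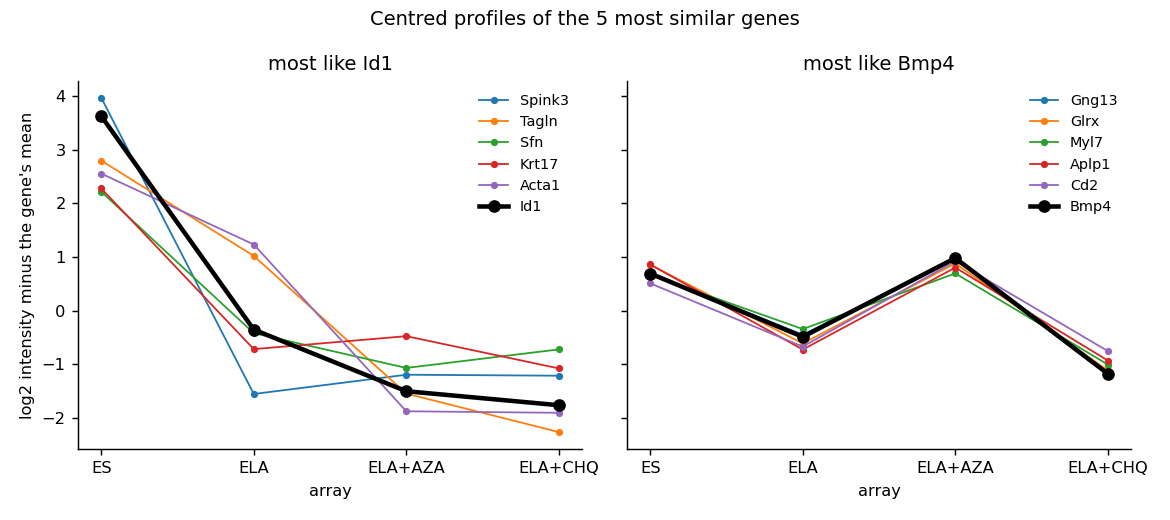
Log2 intensity minus the gene's mean over the 4 arrays (y axis) on each array (x axis) for Id1 and Bmp4 (black) and the 5 genes nearest to each (coloured). The 5 genes near Bmp4 overlay it (distances 0.05 to 0.50), and those near Id1 share the high ES level but spread over the ELA arrays (1.40 to 1.96).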

How the data were processed

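Cy3-labelled cRNA was hybridised to Agilent 60-base mouse arrays, and the authors read the spots with Agilent Feature Extraction (version 10.7.3.1 per the file headers, 9.1 per the submitters' processing notes). The deposited scanner files hold intensity values per spot, not normalised between arrays. The log2 values in the deposited table, which the authors made with limma by background correction and quantile normalisation, were an alternative (r of 0.999 with a normexp correction without offset, and medians of 6.23, 6.21, 6.24 and 6.23 for ES, ELA, AZA and CHQ).

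Mean intensities were corrected with normexp on the local background median (offset 50) and quantile-normalised over the 4 arrays (limma 3.58.1, R 4.3.3). Control spots and spots with an outlier flag were left out, spots of a probe were averaged, and the brightest probe stood for a gene. Of 55681 probes 559 had no usable spot on at least 1 array. Gene spots well above background made up 55.1% to 69.2% of 59305 per array, the median local background was 59, 77, 14 and 13 units on ES, ELA, AZA and CHQ. No gene spot was saturated. Within an array, 432 probes spotted repeatedly had an SD of 0.12 to 0.17 log2. Having 1 array per group limits the precision.

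Calls used the sizes of the study's methods, without its p-value. Genes other than members were named where called in at least 1 of the first 3 comparisons (at most 4 per list, largest difference first), and the 5 genes nearest to Id1 and to Bmp4 were named. Nog, Hand1, Hey2, Tcf3, Tcf4, the SMADs, Skil, Smurf2 and the markers were named after their values were seen. Members, lists and rules were chosen with earlier results of these data known. The normalisation and call steps were tested on simulated data for ELA minus ES over 55681 probes: in each direction 50 of 50 probes changed by 3 log2 units and 49 of 50 changed by 1.5 were called. Mean differences were 2.72 and 1.48 for rises and -2.76 and -1.43 for falls, so large changes came out somewhat small. Only bright probes were changed, and the ELA array's signals and background served for all 4 simulated arrays. Recovery for dim spots, such as that of Id4 in ELA, and across slides of unlike background was therefore not tested. Tfap2a, Tfap2c and Tfcp2l1 were not analysed here.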

Additional observations from a re-analysis of the deposited data

Results flagged for a closer look

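With AZA and CHQ 4 members had values on opposite sides of the ELA array, which with 1 array per group was not tested: Id2 (CHQ minus AZA 1.09), Bmp4 (-2.16), Bmpr1a (0.51) and Msx2 (0.94). Of these, Bmp4 alone differed from ELA by more than 2 reading errors in both directions (1.47 and -0.69). Id2 with CHQ (0.37), Msx2 with AZA (-0.44) and Bmpr1a with both (-0.35 and 0.16) were within 2 errors of ELA, and Bmpr1a lay on the same side with reference transcripts (0.24 and 0.22) and with spike-ins (-0.41 and -0.046). The spot of the dim Bmp4 probe that was left out on the ELA+AZA array for its outlier flag gave a log2 level of 7.38, well above background, against 6.09 to 6.19 on the other arrays.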

How the results depend on the processing

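The 340 recomputed member differences include uncalled ones, and only the 15 called differences were checked for a turn of sign. None of these turned, and 10 were called in the same direction under every alternative normalisation run for their comparison. Some uncalled differences did turn. Id3 between ELA and ES went from 0.26 to -0.47 with spike-ins. Bmpr1a with AZA went from -0.35 to 0.24 with reference transcripts. Keeping outlier-flagged spots and averaging a gene's probes left every member difference unchanged. Quantile normalisation within each slide was run only for ELA against ES and CHQ against AZA. Leaving out the filter on dim probes can only add calls, so all 15 staying there carries no information. With spots well above background on both arrays 12 of the 15 stayed, the 3 lost being those of Id4 against ELA. No paired analysis was possible because each group had 1 array, and for the same reason no array could be left out. Scaling to 7 spike-in probes moved the median of all genes between ELA and ES to -0.59, and scaling to 7 reference transcripts moved it to 0.39 between AZA and ELA and to -0.56 between CHQ and AZA, so directions are relative to the bulk of transcripts. With spike-ins Id3 (-0.47), Bmpr1a (-0.60), Smad6 (-0.79), Msx1 (-0.61) and Msx2 (-0.62) were lower in ELA than in ES. These passed the 2 reading errors given above but were not called. The share of higher calls over all genes was 44.4% between ELA and ES (7.54% with spike-ins), 55.6% with AZA (45.3% with spike-ins, 85.7% with reference transcripts), 55.4% with CHQ (41.9% with the 75th percentile, 32.8% with spike-ins) and 53.5% between CHQ and AZA (41.7% with spike-ins, 12.7% with reference transcripts). The median of the Id genes between ELA and ES was -3.21 with the 75th percentile, -2.99 with an offset of 16, -3.09 in the authors' value table and -2.92 with spike-in scaling (the first 3 without Id4, which could not be called there, and -3.03, -2.63 and -2.77 over all 4 genes), and that of the BMP members was -0.62 with spike-in scaling. With CHQ against ELA the Id median was -1.57 in the authors' value table, again without Id4 (-0.60 over all 4). With reference transcripts the Id median was -0.34 and the BMP median 0.23 for AZA against ELA, and -1.11 and 0.057 for CHQ against AZA, and 3 rather than 5 members were called with AZA. The BMP median of 0.23 includes Smad6, which could not be called with AZA under the main normalisation. A size threshold of 2 left 2 members called between ES and ELA, 2 with AZA and 1 between the inhibitors. Between the inhibitors 5 members were called with the 75th percentile, the offset of 16, the authors' value table and a size threshold of 1.5-fold. Id4 was no longer called between ELA and ES with the 75th percentile (-2.85), the offset of 16 (-2.27) and the authors' value table (-2.45), nor with CHQ in that table (3.52), because its mean level fell under 7.5.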
